A study of Mus musculus with 282 samples.

Results

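The hypothalamus lies directly below the thalamus, and a dissected hypothalamus can carry more or less of the tissue above it. Here hypothalamus libraries of mice from the HMDP, the Hybrid Mouse Diversity Panel of inbred and recombinant inbred strains, were ordered by their level of Prkcd, the gene of protein kinase C delta, which is abundant in relay neurons of the thalamus. Levels are in FPKM, in which the fragments of a gene are divided by transcript length and by the depth of the library. Mice at or above an upper limit, of which the lowest had 125.5 FPKM, were called Prkcd-high, and mice with at most 60 FPKM were called Prkcd-low. Together these were 102 of 282 mice, with 54 Prkcd-high and 48 Prkcd-low, and 180 mice lay between the limits. All 282 were male mice fed a high fat, high sugar diet, 1 whole hypothalamus library per mouse, and no mouse on another diet or of the other sex is among them. They came from 99 strains, and their ages are not given in the sources used here. The groups were thus defined by a measured value and not by a treatment, so Prkcd itself is described without a test, and every other gene was compared.

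The thalamus relays sensory and motor signals to the cortex through excitatory neurons that switch between tonic and burst firing. These relay neurons carry the transcription factors Tcf7l2 and Lef1, nuclear partners of beta-catenin in Wnt signalling, and they are also known for the slow skeletal troponin Tnnt1 and the receptor activity-modifying protein Ramp3. The hypothalamus below it consists of many small nuclei that are marked by developmental transcription factors such as Nkx2-1 and Otp and that release peptides such as galanin, neurotensin and thyrotropin-releasing hormone. Because the libraries are of bulk tissue, fewer cells of a type and less RNA per cell cannot be told apart.

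Tcf7l2 and Lef1 can bind DNA at the letters CTTTGA, and other forms of their site were not searched. For this reason the sequences just before the start are shown for the gene that chose the mice, both other thalamus markers and 1 further relay gene. They are the 250 bases before the start in RefSeq on GRCm38.p6, the build of mm10, read 5′ to 3′ along the gene, and capitals mark CTTTGA on either strand, which reads TCAAAG on the opposite one.
Prkcd (chr14:30626209-30626458, minus strand): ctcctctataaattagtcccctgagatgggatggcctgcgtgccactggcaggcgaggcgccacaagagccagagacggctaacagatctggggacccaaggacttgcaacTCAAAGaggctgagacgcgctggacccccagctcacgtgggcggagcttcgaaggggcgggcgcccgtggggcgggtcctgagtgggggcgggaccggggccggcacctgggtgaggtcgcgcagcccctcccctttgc
Tcf7l2 (chr19:55741560-55741809, plus strand): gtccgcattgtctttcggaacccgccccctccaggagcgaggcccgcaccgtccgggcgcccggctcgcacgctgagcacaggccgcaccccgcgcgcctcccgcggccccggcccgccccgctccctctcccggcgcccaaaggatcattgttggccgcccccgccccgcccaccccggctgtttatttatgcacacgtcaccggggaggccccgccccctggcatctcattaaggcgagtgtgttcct
Tnnt1 (chr7:4515976-4516225, minus strand): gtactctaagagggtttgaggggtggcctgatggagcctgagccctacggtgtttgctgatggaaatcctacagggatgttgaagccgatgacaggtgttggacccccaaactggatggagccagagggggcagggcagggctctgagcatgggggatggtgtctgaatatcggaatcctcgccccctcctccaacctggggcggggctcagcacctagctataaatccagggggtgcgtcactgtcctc
Shox2 (chr3:66981772-66982021, minus strand): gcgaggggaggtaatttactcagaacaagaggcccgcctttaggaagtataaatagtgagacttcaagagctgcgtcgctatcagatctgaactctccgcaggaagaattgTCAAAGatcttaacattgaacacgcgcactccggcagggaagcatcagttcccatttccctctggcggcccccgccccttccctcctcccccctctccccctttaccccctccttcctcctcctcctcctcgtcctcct
The window of Prkcd held 1 match, which began 139 bases before the start, and that of Shox2 also held 1. The windows of Tcf7l2 and Tnnt1 held none, which says only that these letters are not in these stretches. Of all 32851 promoters of the reference table, 13.8% held at least 1 match. The share was 10.1% of the 10997 promoters of genes tested here and 8.52% of the 575 promoters of genes that were higher in the Prkcd-high mice. Of the 232 promoters of lower genes 7.76% held one. Of the 32 promoters of the relay genes 2 (6.25%) held one, among them that of Shox2. A second RefSeq start of Prkcd (chr14:30610311-30610560) and the windows of Ramp3 and Rora held none. The window of Lef1 at chr3:131156044-131156293 held 2, and the other windows of Lef1 held none. A match is a description of the letters and was not tested as a binding site.

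Prkcd (chr14:30595353-30626208 in mm10) ranged from 4.66 to 207 FPKM over the 282 mice, with a median of 92.3. The Prkcd-high mice had 125.5 to 207 FPKM with a median of 139, and the Prkcd-low mice had 4.66 to 59.8 with a median of 43.8. The distribution had no gap at either limit. The last mouse inside the lower limit had 59.8 FPKM and the first one outside 61.1, and at the upper limit the values were 124.4 outside and 125.5 inside. The strain explained a share of 0.348 of the variance of log2 Prkcd, so most of the spread lay between mice of the same strain. Prkcd-high mice occurred in 41 strains and Prkcd-low mice in 32. Among the 97 strains with at least 2 mice, every mouse was Prkcd-low in 6 (BXD-14/TyJ, BXD-19/TyJ, BXD-38/TyJ, BXHB2, CXB-12/HiAJ and PL/J) and every mouse was Prkcd-high in 2 (BXD-11/TyJ and NZB/BlNJ). In NZB/BlNJ the values were 144, 135 and 152 FPKM, and in BXD-19/TyJ they were 39.0, 21.2 and 8.17. By strain set, the 43 BXD strains gave 23 Prkcd-high and 22 Prkcd-low mice of 126, the AXB/BXA strains 10 and 4 of 47, and the BXH strains 1 and 6 of 16.

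A few libraries stood apart. The library of BXD-12/TyJ replicate 2, a Prkcd-low mouse, had a summed gene FPKM of 792801, against 322047 to 463433 in the other mice. Its Tnnt1 was 80.3 FPKM and its Ramp3 91.2, above every Prkcd-high mouse, although its Prkcd was 49.0. No mouse of its strain was Prkcd-high, so it had no weight in the within-strain differences below, but it sets the upper end of several Prkcd-low ranges. The sum of 463433 was that of CXB-3/ByJ replicate 3, a Prkcd-high mouse, and the next highest sum was 359916. This library sets the upper end of the Prkcd-high ranges of Tnnt1 and Nts, and no mouse of its strain was Prkcd-low. Replicates 2 and 3 of CXB-6/ByJ, both between the limits, differed by a root mean square of 0.00598 on the log2 scale, where the next closest pair within a strain differed by 0.234. They were counted as 1 sample, which left 179 mice between the limits. One Prkcd-high mouse had no unambiguous strain label and was left out of the comparisons, which left 53 Prkcd-high mice.

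**Figure D1:**
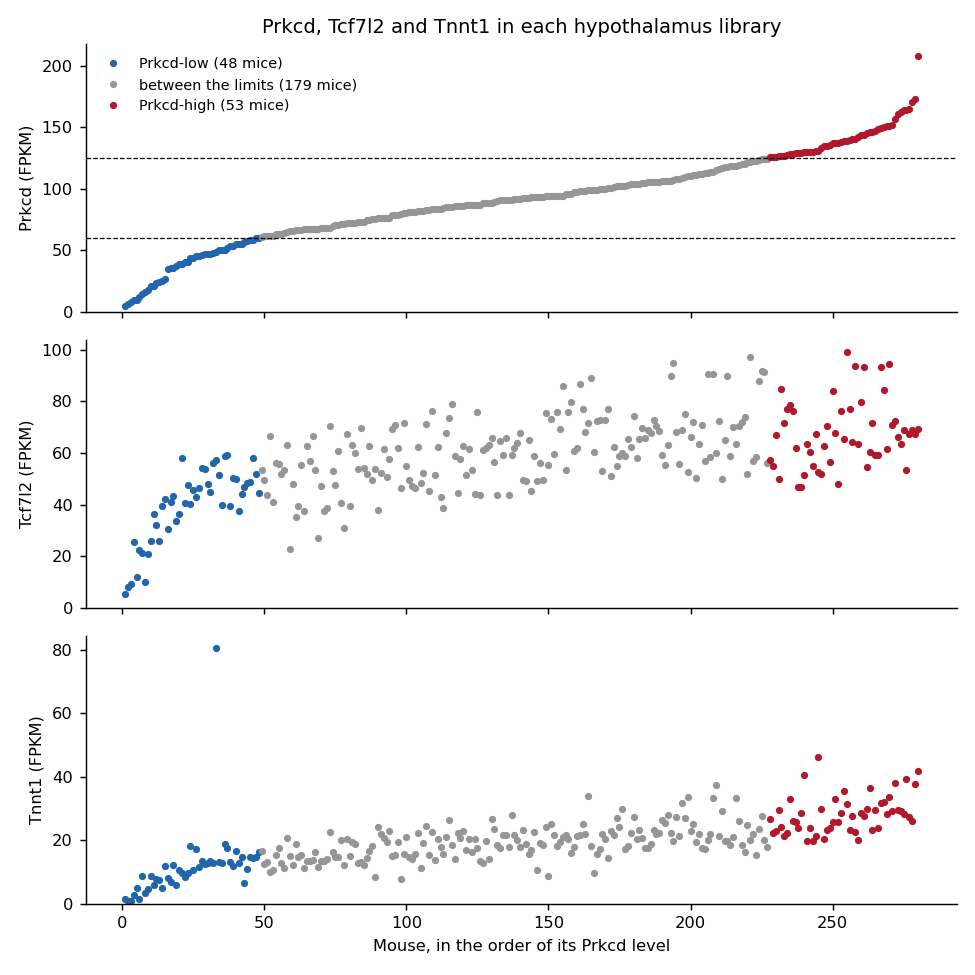
Level in FPKM of Prkcd (top), Tcf7l2 (middle) and Tnnt1 (bottom) in each mouse, with the mice in the order of their Prkcd level and dashed lines at the lower limit of 60 FPKM and at the upper limit. Tcf7l2 and Tnnt1 were lowest in the mice with the least Prkcd, and 1 Prkcd-low mouse had Tnnt1 of 80.3 FPKM.

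The first question was whether the other markers of the thalamus were also higher in the Prkcd-high mice. The comparison was made within strains. In 7 strains (AXB-2/PgnJ, BUB/BnJ, BXD55, BXD68, BXH-6/TyJ, CXB-7/ByJ and SJL/J) 1 mouse was Prkcd-high and 1 was Prkcd-low, and the log2 difference of a gene is the mean of these 7 differences of log2(FPKM + 1). The 101 mice were used in 1 limma fit with strain as a term. Its residual spread came from these 7 strains and from the other strains with more than 1 mouse in the fit. Benjamini-Hochberg adjustment was made over all 14078 gene rows other than Prkcd. At an adjusted p of 0.05, 592 gene rows (4.21%) were higher in the Prkcd-high mice and 295 (2.1%) were lower. The median log2 difference over all gene rows was -0.01. Without BXD68 the counts were 242 and 63, and without BXD55 316 and 124. In fits with strain as a term, p values rest on the residual spread between mice of the same strain. They are no measure of how the differences varied across the 7 strains alone. Among the genes called higher the median log2 difference was 0.35 and the largest 1.71, and among those called lower the median was -0.32.

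Tcf7l2 (chr19:55741803-55933665 in mm10) is a transcription factor of the developing and adult thalamus. It had 46.8 to 99.1 FPKM in the Prkcd-high mice, with a median of 67.1, and 5.49 to 59.0 in the Prkcd-low mice, with a median of 42.5. The ranges overlapped between 46.8 and 59.0. Within strains its log2 difference, the mean of 7 strains, was 1.07 ± 0.31 (SE from the residual spread of the fit, adjusted p = 0.0272 by limma). The 7 differences themselves ran from 0.28 to 2.65. It was higher in the Prkcd-high mouse of every one of the 7 strains, but the size differed. In BXD68 it was 10.2 FPKM in the Prkcd-low mouse and 69.2 in the Prkcd-high mouse, and in BXD55 11.9 and 67.4. In SJL/J it was 51.4 and 62.5, and in AXB-2/PgnJ 44.2 and 54.8. With single strains left out the adjusted p ranged from 0.0217 to 0.209, and the call was lost without BXD55, without BXD68 and without CXB-7/ByJ.

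Tnnt1 (chr7:4504570-4515959), a troponin T of slow muscle, had 19.8 to 46.1 FPKM in the Prkcd-high mice (median 27.6) and 0.771 to 80.3 in the Prkcd-low mice (median 11.3). Without BXD-12/TyJ replicate 2 the highest Prkcd-low mouse had 18.8, and the groups did not overlap. Its log2 difference within strains was 1.55 ± 0.41 (adjusted p = 0.0172 by limma). In BXD68 it went from 3.54 FPKM in the Prkcd-low mouse to 41.7 in the Prkcd-high mouse, and in BUB/BnJ from 11.0 to 21.2. This call was lost without BXD55 or without BXD68, with adjusted p values up to 0.135. Both markers of the thalamus were therefore higher in the mice chosen for high Prkcd, beyond the residual spread of the fit when all 7 strains were used. That spread also came from strains with mice of 1 group only, which were alike in Prkcd by choice. With the 7 strains alone, 23 gene rows were higher and 6 lower by limma, against 592 and 295.

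Rab37 (chr11:115091431-115162236), a small GTPase that is not on the marker list, had the largest log2 difference of the genes named by size, 1.71 ± 0.26 (adjusted p = 9.39e-05 by limma). Its level was 9.94 to 22.5 FPKM in the Prkcd-high mice, with a median of 13.6, and 1.09 to 8.75 in the Prkcd-low mice, with a median of 4.67. The groups did not overlap, BXD-12/TyJ replicate 2 included. Across the 14078 gene rows this held for 5 (0.0355%), all higher in the Prkcd-high mice, and the other four were the secreted signal Wnt9b, the oxysterol-binding protein gene Osbpl1a, the actin-binding Nexn and the GABA-A receptor subunit Gabra4. Wnt9b, Osbpl1a and Nsmf are named for this separation, after their values had been seen. Without BXD-12/TyJ replicate 2 the count was 8 (0.0568%), which added Nsmf, Gabrd and Tnnt1. No gene was separated in the other direction.

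**Figure D2:**
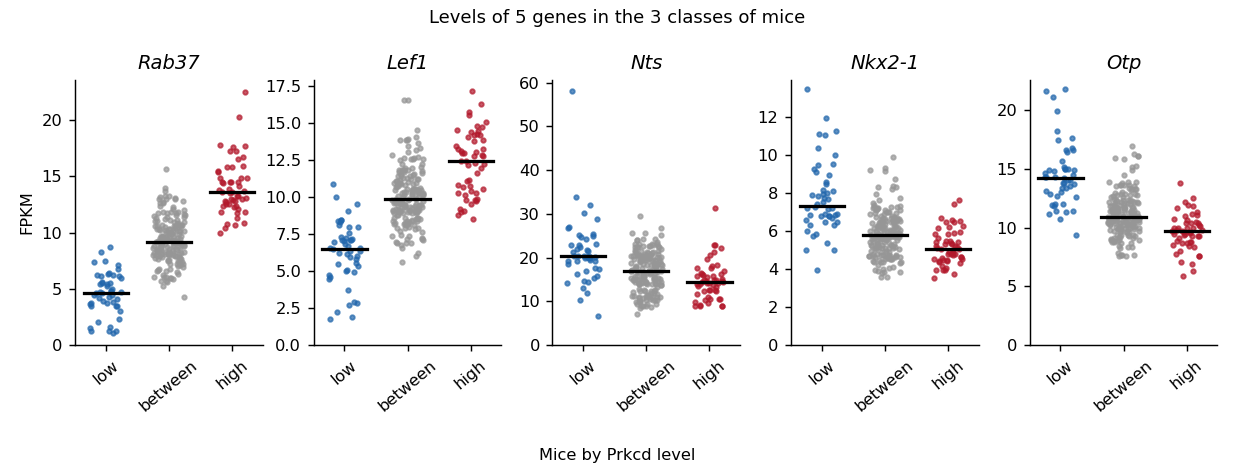
Level in FPKM of Rab37, Lef1, Nts, Nkx2-1 and Otp in the 48 Prkcd-low, 179 intermediate and 53 Prkcd-high mice, with 1 point per mouse and a bar at the median. Rab37 of the Prkcd-low and Prkcd-high mice did not overlap, while the ranges of the other genes did.

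Of the 26 relay neuron genes on the list, all of them measured, 18 were higher in the Prkcd-high mice, none was lower and 8 did not pass the test. Their median log2 difference was 0.81, beside -0.01 over all gene rows. In all 7 strains 21 of the 26 were higher, beside 5.47% of all gene rows, and 4.21% of all gene rows were called higher. The list was chosen with earlier results of these data known. Ramp3, which directs calcitonin-family receptors to the cell surface, had a log2 difference of 1.63 ± 0.40, with 25.2 to 61.3 FPKM in the Prkcd-high mice and 1.77 to 91.2 in the Prkcd-low mice. Shox2, a homeobox factor, had 16.3 to 32.1 FPKM in the Prkcd-high mice, against 0.272 to 19.2 in the Prkcd-low mice, and a difference of 1.52 ± 0.41. Lef1 had a difference of 1.10 ± 0.23 and Synpo2, an actin-binding protein, 1.44 ± 0.29. Rora, an orphan nuclear receptor, rose from a median of 11.9 FPKM to 29.0, with a difference of 1.06 ± 0.20. Ntng1, a synaptic adhesion protein, rose by 0.98 ± 0.21, and Adarb1, which edits adenosine to inosine in RNA, by 0.83 ± 0.14. The tyrosine phosphatase Ptpn3, the exchange factor Vav3, the phospholipase Plcb4, the G protein regulator Rgs16 and Amotl1, Kcnc2, Hcn4 and Nexn were also among the members called higher. Ramp3 and Shox2 lost their calls without BXD55 or without BXD68, whereas Lef1, Synpo2, Plcb4, Rora, Ntng1, Ptpn3, Adarb1, Nexn, Rgs16, Amotl1 and Vav3 kept theirs without any single strain.

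The members that did not pass included genes that the thalamus shares with other regions. Slc17a6, the vesicular glutamate transporter of both thalamic and hypothalamic excitatory neurons, had a log2 difference of 0.44 ± 0.16 (adjusted p = 0.109 by limma). Calb2, the calcium-binding protein calretinin, had 0.02 ± 0.14, and its median was 196 FPKM in the Prkcd-high and 206 in the Prkcd-low mice. The homeobox gene Gbx2 had 0.74 ± 0.31 and the T-type calcium channel Cacna1g 0.31 ± 0.13. Ptpn4, Foxp2, Zic1 and Slitrk6 had differences of 0.35 to 0.77 and adjusted p values from 0.0547 to 0.429. A p value that misses the threshold does not show that these genes were equal.

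**Figure D3:**
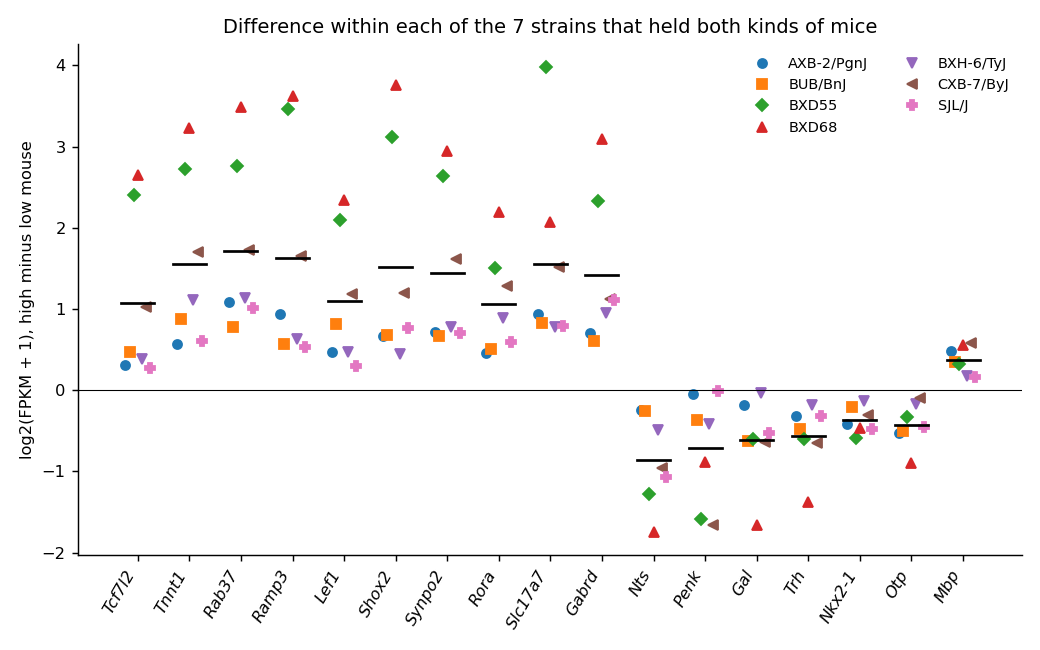
Difference in log2(FPKM + 1) between the Prkcd-high and the Prkcd-low mouse of each of 7 strains, for 17 genes, with 1 symbol per strain and a bar at the mean. BXD55 and BXD68, whose Prkcd-low mice had 9.86 and 16.1 FPKM of Prkcd, gave the largest differences of Tcf7l2 and Tnnt1.

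The pairs differed in how far apart they were in Prkcd. Prkcd was 16.1 FPKM in the Prkcd-low mouse of BXD68 and 207 in the Prkcd-high mouse, and 9.86 and 173 in BXD55. In BXH-6/TyJ the values were 59.7 and 137, and in AXB-2/PgnJ 55.6 and 126. The log2 difference of Tnnt1 was 3.23 in BXD68 and 2.73 in BXD55, 1.70 in CXB-7/ByJ, and 0.57 to 1.11 in the other 4. In 5 of the 7 strains a further mouse lay between the limits. Its level lay between those of the other mice of its strain in all 5 for Tnnt1, Rab37, Ramp3, Synpo2, Rora and Gabrd, in 4 of 5 for Lef1, and in 2 of 5 for Tcf7l2. Of the genes that were lower, it did so in 3 of 5 for Gal, Trh and Penk, in 2 for Nts, in 1 for Otp and in 0 for Nkx2-1. In BXD68 the intermediate mouse had 71.9 FPKM of Tcf7l2, above the Prkcd-high mouse with 69.2. At the extreme, the mice with the least Prkcd were C57L/J replicate 3, BXHB2 replicate 2 and BXD-19/TyJ replicate 3, with 4.66, 6.60 and 8.17 FPKM. Their Tcf7l2 was 5.49, 8.15 and 9.22 FPKM and their Tnnt1 1.59, 0.961 and 0.771, the lowest of the Prkcd-low mice for Tcf7l2.

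Thalamic neurons fire in rhythms that depend on pacemaker, T-type calcium and fast potassium channels. Of 19 such genes measured 8 were higher and 1 lower, beside 4.21% and 2.1% of all gene rows. The other 10 did not pass, and the median log2 difference of the 19 was 0.31. The pacemaker channels Hcn2 (0.41 ± 0.10) and Hcn4 (0.40 ± 0.13) were among those higher, and so were the fast potassium channels Kcnc1 (0.31 ± 0.07) and Kcnc2 (0.78 ± 0.19), the delayed rectifier Kcna1 (0.57 ± 0.16), the potassium channel subunit Kcnab2 (0.50 ± 0.08) and the sodium channel subunit Scn4b (0.91 ± 0.17). The T-type channel Cacna1h was lower (-0.40 ± 0.12), and its call was lost without any one of 5 of the 7 strains. Hcn4 lost its call without 4 of them. Kcnc1, Kcnab2 and Scn4b kept their calls without any single strain.

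The receptors for GABA, the main inhibitory transmitter, did not move one way. Of 12 subunit genes 2 were higher and 4 lower, beside 4.21% and 2.1% of all gene rows. Gabrd had 17.2 to 31.9 FPKM in the Prkcd-high mice and 0.404 to 23.8 in the Prkcd-low mice, a difference of 1.42 ± 0.37 (adjusted p = 0.0141 by limma). Gabra4 had 31.4 to 53.9 FPKM against 8.52 to 28.3, a difference of 0.99 ± 0.19 (adjusted p = 0.00078 by limma). The delta and alpha 4 subunits are known to form extrasynaptic receptors together in thalamic relay neurons. Gabre (-0.59 ± 0.14) and Gabrq (-0.42 ± 0.10), neighbours on the X chromosome that are known from the hypothalamus, were lower, as were Gabra5 (-0.26 ± 0.08) and Gabrg3 (-0.23 ± 0.07). Calls of Gabre, Gabrq and Gabrd were lost without BXD55 or without BXD68, those of Gabra5 and Gabrg3 without any one of 4 strains, and Gabra4 kept its call without any single strain. Gabra2 and Gabrg1 had no row of their own name and were not analysed here.

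Of 7 transporters and synthetic enzymes of GABA and glutamate neurons, 1 was higher and 1 lower, beside 4.21% and 2.1% of all gene rows. Slc17a7, the glutamate transporter of cortical and thalamic neurons, had 22.4 to 94.9 FPKM in the Prkcd-high mice and 0.627 to 34.2 in the Prkcd-low mice, a log2 difference of 1.56 ± 0.43. The difference was 3.98 in BXD55 and 0.78 to 2.07 in the other 6 strains, and the call was lost without BXD55 or without BXD68. Gad2, a GABA-synthesising enzyme, was lower by a log2 difference of -0.38 ± 0.10, with a median of 64.6 FPKM against 75.2.

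Prkcd belongs to the protein kinase C family. Of its other members, Prkch had a difference of 0.60 ± 0.20 and an adjusted p of 0.064 by limma. Prkca, Prkcb, Prkce and Prkcz had differences from -0.22 to 0.19 and did not pass. Tnnt1 in turn was 1 of 7 measured troponin and muscle filament genes, of which Tnnt1, Synpo2 and Nexn were higher and Actn2, an actin cross-linker, was lower (-0.35 ± 0.10). The troponins Tnnt2, Tnnc1 and Tnni1 had differences of -0.32, 0.03 and 0.39, and none passed. Of 7 genes of the Wnt pathway, Tcf7l2, Lef1 and Ctnnb1, the gene of beta-catenin (0.25 ± 0.06), were higher. Tcf7, Tcf7l1, Nkd1 and Lgr5 did not pass, with differences from -0.26 to 0.33. Over all gene rows 4.21% were higher and 2.1% lower.

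Of 19 measured transcription factors that mark the hypothalamus, 8 were lower in the Prkcd-high mice (among them Six6, Nkx2-1, Otp, Lhx6, Dlx2, Fezf1 and Hmx3), none was higher and 11 did not pass, with a median log2 difference of -0.36. In all 7 strains 7 of them were lower, beside 3.26% of all gene rows, and 2.1% of all gene rows were called lower. Nkx2-1, required for the ventral hypothalamus, had 3.55 to 7.64 FPKM in the Prkcd-high mice (median 5.04) and 3.97 to 13.5 in the Prkcd-low mice (median 7.34). Its difference was -0.37 ± 0.10 (adjusted p = 0.013 by limma), lower in all 7 strains. Otp, required for neuroendocrine peptide neurons, had medians of 9.72 and 14.2 FPKM and a difference of -0.43 ± 0.11. Both were thus measured in every mouse of either group, and the ranges overlapped. Nkx2-1 and Hmx3 lost their calls without BXD55 or without BXD68, Otp without BXD68, Lhx6 without any one of 3 strains, Fezf1 of 4 and Six6 of 5. Dlx2, a factor of GABA neuron development, kept its call without any single strain, with a difference of -0.58 ± 0.11.

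Of 22 measured peptide genes, 6 were lower and 1 was higher, beside 2.1% and 4.21% of all gene rows. The other 15 did not pass, and the median log2 difference of the 22 was -0.36. Nts, the precursor of neurotensin, had 8.87 to 31.5 FPKM in the Prkcd-high mice (median 14.4) and 6.70 to 58.1 in the Prkcd-low mice (median 20.3). Its difference was -0.86 ± 0.17 (adjusted p = 0.00152 by limma). Penk, the precursor of enkephalins, had -0.71 ± 0.14, Gal (galanin) -0.61 ± 0.14, Trh (thyrotropin-releasing hormone) -0.56 ± 0.13, Crh (corticotropin-releasing hormone) -0.49 ± 0.15 and Pdyn (prodynorphin) -0.37 ± 0.11. Nts and Penk kept their calls without any single strain, Gal and Trh lost theirs without BXD68, Pdyn without any one of 3 strains and Crh without any one of 5. The peptide gene that was higher was Cck, the precursor of cholecystokinin, which is also made by thalamic and cortical neurons, with a median of 105 FPKM against 60.6 and a difference of 1.05 ± 0.29. It lost its call without BXD55 or without BXD68. The feeding peptides Npy, Cartpt, Hcrt and Pmch had differences of -0.36 to -0.14 and did not pass. Of 16 receptor and signalling genes of the hypothalamus, 4 were lower, beside 2.1% of all gene rows. These 4 were the oestrogen receptor Esr1 (-0.52 ± 0.13), the insulin receptor substrate Irs4 (-0.63 ± 0.12), the imprinted Magel2 (-0.42 ± 0.09) and the orphan receptor Gpr101 (-0.50 ± 0.12). Esr1 lost its call without any one of 3 strains and Gpr101 without BXD68, while Irs4 and Magel2 kept theirs. Some markers of neighbouring forebrain regions had negative differences as well. Of the striatum, Rgs9 was lower, as given below, and Ppp1r1b, Drd1a and Drd2 had differences of -0.57 ± 0.28, -0.47 ± 0.19 and -0.25 ± 0.11 (adjusted p from 0.162 to 0.274 by limma). Cortex and hippocampus did not go one way. Tbr1 had -0.41 ± 0.19 (adjusted p = 0.224 by limma), whereas Slc17a7, on the same list, was higher, as given above. The part of these regions in the lower hypothalamic genes was not tested.

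Oligodendrocytes are the cells that wrap axons in myelin. Of their 12 measured genes 7 were higher and none was lower, beside 4.21% and 2.1% of all gene rows. Among the 7 were Mbp, Ermn, Mal, Ugt8a, Mag and Mobp. All 12 had a positive log2 difference, between 0.10 and 0.39, beside 6787 of all 14078 gene rows. Mbp, myelin basic protein, had 895 to 2281 FPKM in the Prkcd-high and 828 to 1868 in the Prkcd-low mice, so that the ranges mostly overlapped, with a difference of 0.38 ± 0.10 within strains. Ugt8a kept its call without any single strain, Mag, Mobp and Ermn lost theirs without BXD68, and Mal lost its call without any one of the 7.

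**Figure D4:**
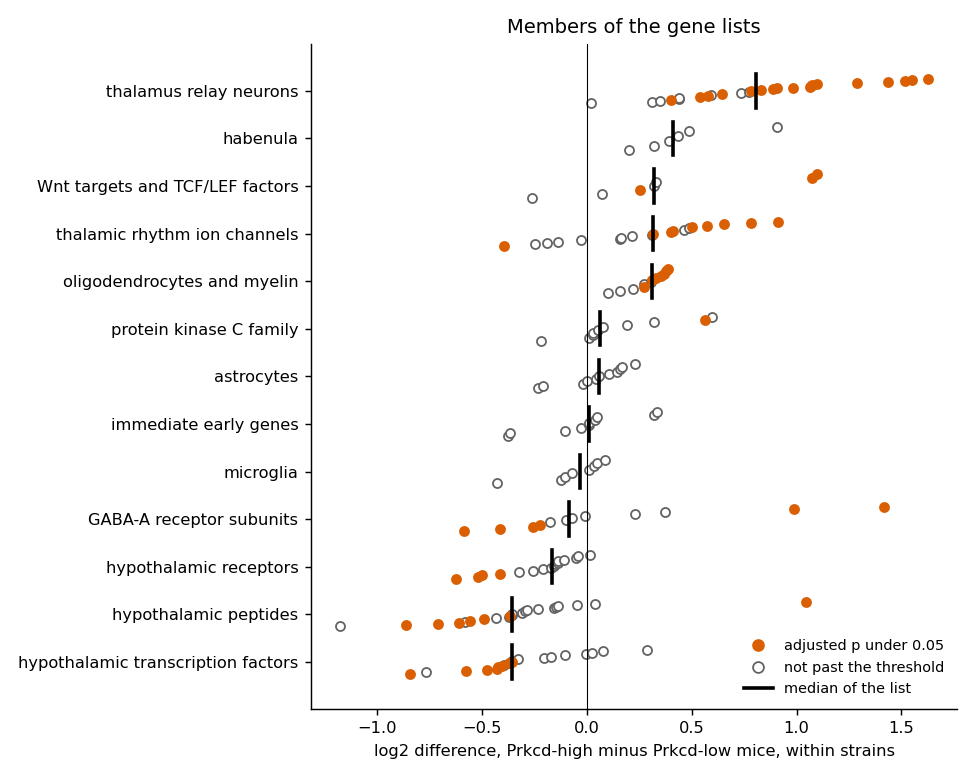
Log2 difference within strains, Prkcd-high minus Prkcd-low mice, of each measured member of 13 gene lists, with filled points for an adjusted p under 0.05 by limma and a bar at the median of the list. The median was 0.81 for relay neuron genes and -0.36 for hypothalamic transcription factors and for peptides.

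Of 7 genes of the reticular thalamus and zona incerta, the inhibitory shell beside the relay nuclei, Pvalb (parvalbumin, 1.04 ± 0.19) was higher and Ecel1 (-0.61 ± 0.13) was lower. The latter is an endopeptidase-like gene that is also expressed in the hypothalamus. Of 4 genes of midbrain dopamine neurons, Aldh1a1 was higher (0.69 ± 0.18), while Th had a difference of -0.12 ± 0.23. Of 6 genes of ependyma and tanycytes, Dio2, the deiodinase that activates thyroid hormone, was higher (0.44 ± 0.10). It was the only 1 of the 6 with a positive difference, and the median of the list was -0.10. Over all gene rows 4.21% were higher and 2.1% lower, and single calls in lists this short are not read as results about the lists. In 10 further lists no member passed the limma test. These were the habenula, oligodendrocyte precursors, astrocytes, microglia, endothelium, immediate early genes, heat shock genes, blood, sex-linked genes and the anterior pituitary. Of their 67 measured members, 5 were higher and 3 lower at an unadjusted p of 0.05, beside 10.1% higher and 8.13% lower of all gene rows. The habenula, a thin structure at the upper edge of the thalamus, had 6 measured genes with a median log2 difference of 0.41, the largest being Gpr151 with 0.91 ± 0.42.

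Other tissue also differed between mice of these groups. The summed level of 6 anterior pituitary genes was 2.11 to 527.7 FPKM in the Prkcd-high mice, with a median of 30.3, and 0.589 to 12411 in the Prkcd-low mice, with a median of 11.7. Gh was listed at 0 in 1 of 53 Prkcd-high and 2 of 48 Prkcd-low mice. The summed level of 5 choroid plexus genes was 9.05 to 2101 FPKM in the Prkcd-high and 8.63 to 1402 in the Prkcd-low mice, and Ttr (transthyretin) was above 0 in every mouse. Within the 7 strains, Prl and Ttr were lower in the Prkcd-high mouse of 5 and Gh of 4. In AXB-2/PgnJ the Prkcd-low mouse had 4971 FPKM of Gh and 1054 of Ttr, against 2.33 and 11.1 in its Prkcd-high mouse. In BXD68 Ttr was 810 FPKM in the Prkcd-low mouse and 5.22 in the Prkcd-high mouse, a log2 difference of -7.03, against -6.45 in AXB-2/PgnJ. Without AXB-2/PgnJ 487 genes were higher and 231 lower, and with Ttr and Prl as covariates 427 were higher and 203 lower. Clic6, a chloride channel gene of the choroid plexus list, was lower (-0.69 ± 0.20), and the part of choroid plexus tissue in this difference was not tested.

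Of the genes named by size, the relay list, chosen with earlier results of these data known, held 9 of the 15 largest. The other six were Rab37, Slc17a7, Gabrd, Eps8l2, an actin regulator (1.49 ± 0.20), Abhd12b, a hydrolase of unassigned role (1.33 ± 0.26), and Plekhg1, a guanine nucleotide exchange factor (1.33 ± 0.25). Rab37, Eps8l2, Abhd12b and Plekhg1 kept their calls without any single strain. Of the 15 lowest, Nts, Penk, Gal, Trh, Irs4, Ecel1, Gabre, Clic6 and Rgs9 stand in the lists above or in a list that is not reported here. The other six were the adhesion molecule Icam5 (-0.73 ± 0.21), the calcitonin receptor Calcr (-0.58 ± 0.13), the guanine deaminase Gda (-0.54 ± 0.12), the imprinted Dlk1 (-0.52 ± 0.13), the vesicle GTPase Rab3b (-0.52 ± 0.09) and the granule protein Sytl4 (-0.50 ± 0.11). Rab3b and the G protein regulator Rgs9 (-0.64 ± 0.11) kept their calls without any single strain.

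The second question was whether the same genes followed Prkcd in mice that the limits leave out. In the 179 mice between the limits, of which 64 strains had at least 2, the slope of each gene on log2(Prkcd FPKM + 1) was fitted with strain as a term. These mice had 61.1 to 124 FPKM of Prkcd. With an adjusted p under 0.05 by limma, 516 genes (3.67%) had a positive slope and 200 (1.42%) a negative one. Of the 592 genes higher in the Prkcd-high mice, 583 had a positive slope and 346 were called, which is 58.4% of the 592 and 67.1% of the 516. Of the 295 lower genes 93.6% had a negative slope and 77 were called, which is 26.1% of the 295 and 38.5% of the 200. No gene was called in opposite directions in both.

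Rab37 had a slope of 0.85 ± 0.05 log2 units per log2 unit of Prkcd (adjusted p = 5.27e-28 by limma), Gabrd 0.75 ± 0.06, Tnnt1 0.64 ± 0.08, Ramp3 0.61 ± 0.05, Lef1 0.45 ± 0.05 and Tcf7l2 0.39 ± 0.08 (adjusted p = 0.00035). Of the 26 relay genes 19 had a called positive slope, with a median slope of 0.44. Their medians rose in the order Prkcd-low, intermediate, Prkcd-high for 92.3% of the list, beside 29.2% of all gene rows. Of the 19 hypothalamic transcription factors 5 had a called negative slope, among them Nkx2-1 (-0.39 ± 0.08) and Otp (-0.34 ± 0.07). Their medians fell in that order for 94.7% of the list, beside 33.7% of all gene rows. Dlx2 and Lhx6, which were lower in the Prkcd-high mice, had slopes of -0.17 ± 0.09 and 0.12 ± 0.17 and did not pass. Of the peptides 5 had a called negative slope and Cck a positive one (0.41 ± 0.08), while Nts (-0.21 ± 0.11) and Penk (-0.20 ± 0.07) did not pass. Of the channel list 10 had a called positive slope, with Scn4b at 0.79 ± 0.10, and of the myelin list 6 did, with Mal at 0.27 ± 0.07.

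**Figure D5:**
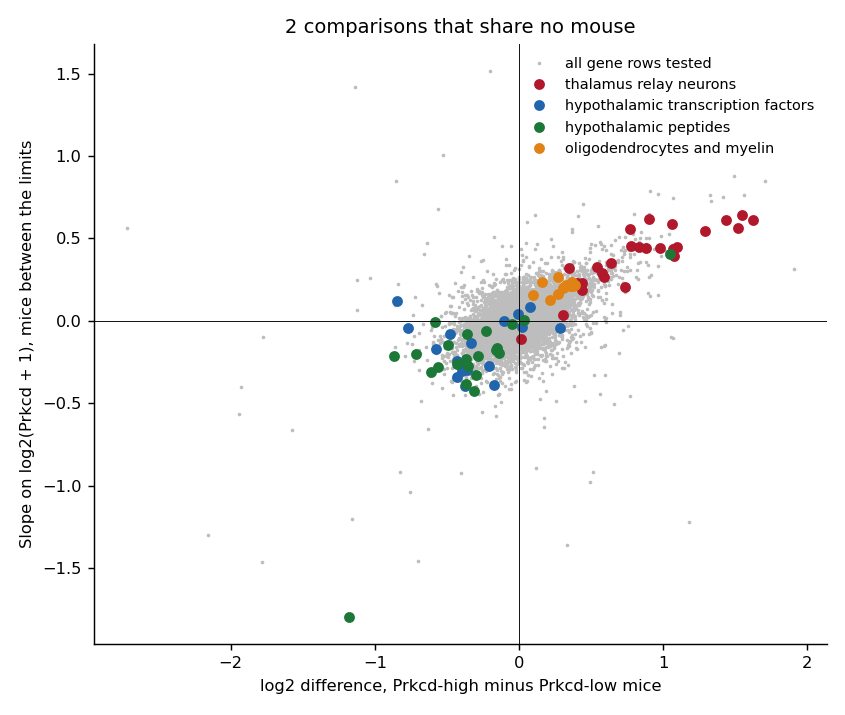
Slope on log2(Prkcd FPKM + 1) in the 179 mice between the limits (vertical axis) against the log2 difference between Prkcd-high and Prkcd-low mice (horizontal axis), with 1 point per gene row. Relay neuron genes lie at the upper right, with a median slope of 0.44.

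Single transcripts were tested in the same way. Of 51013 transcripts outside Prkcd, 77 (0.151%) were higher in the Prkcd-high mice and 9 (0.0176%) lower at an adjusted p of 0.05 by limma. The 86 transcripts came from 79 genes, and 67 of these genes were also called as a whole. For Rora the full-length isoform (11 exons, 10878 bases) rose from a mean of 5.81 ± 2.21 to 14.7 ± 4.11 FPKM (SD), a log2 difference of 1.24 ± 0.26, and for Rab37 the main isoform (9 exons, 2210 bases) rose by 1.79 ± 0.29. The largest difference was that of an isoform of Tiam1, an exchange factor for the GTPase Rac, with 3.96 FPKM against 0.581 and a log2 difference of 2.28 ± 0.32, and it was singled out after its values had been seen. None of the 17 transcripts of Tcf7l2 and none of the 6 of Tnnt1 passed on its own. The closest was a 15-exon transcript of Tcf7l2, with 12.3 ± 3.98 against 6.40 ± 3.74 FPKM and an adjusted p of 0.0867. Of the 11 transcripts of Prkcd, which are described only, the leading one held 49.3% of the summed level in the Prkcd-high and 40.6% in the Prkcd-low mice.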

How the data were processed

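Unstranded mRNA libraries had been made from the whole hypothalamus of 282 mice, all of them male and fed a high fat, high sugar diet. Per the labels and methods, the authors used STAR 2.3.1 for alignment (mm10), Cufflinks 2.2.0 for assembly and Cuffnorm 2.2.1 for the deposited FPKM, which are scaled between mice. FPKM carry no counts, so no counting interval was computed, and sense and antisense transcripts that overlap cannot be told apart.

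Values were tested as log2(FPKM + 1) with limma 3.58.1 in R 4.3.3, with strain as a fixed term and an adjusted p threshold of 0.05, after the same fits had been tested on simulated data. Replicates were numbered in accession order and pair nothing. The genes named are the members of 27 gene lists and the 15 largest and 15 lowest differences among called genes with a mean FPKM of at least 5 and a single gene name. The groups and lists were chosen with earlier results of these data known. Not reported here are some list members, and of the lists for striatum and for cortex and hippocampus only single genes are given. Alternatives were another pseudocount, filter, normalization, limits, covariates and strain terms, and leaving out replicates, strains and libraries.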

Additional observations from a re-analysis of the deposited data

Results flagged for a closer look

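In each of the 30 genes named for the size of their difference, the 7 within-strain differences were examined for a strain that stood apart from the rest by Dixon's criterion, which chance meets in about 1 of 20 genes. This was so for 4 genes. In BXD68 the log2 difference, Prkcd-high minus Prkcd-low mouse, was -1.38 for Trh (thyrotropin-releasing hormone), against -0.65 to -0.19 in the other 6 strains. For Gal (galanin) it was -1.66 in BXD68, against -0.64 to -0.03. For Sytl4, a secretory granule protein, it was -1.42 in BXD68, against -0.56 to -0.10. For the glutamate transporter Slc17a7 it was 3.98 in BXD55, against 0.78 to 2.07.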

How the results depend on the processing

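Against 4.21% of gene rows higher and 2.1% lower, the shares were 15.3% and 15.7% with no strain term (2147 and 2207 genes), 17.7% in both directions with no strain term and without BXD-12/TyJ replicate 2 (2491 and 2492, chosen after seeing the data), 14.0% and 13.8% with strain as a random term (1967 and 1948), 15.3% and 13.4% with Prkcd as a continuous term over all mice (2152 and 1888), and 10.1% and 6.96% with limits of 110 and 70 FPKM. They were 0.163% and 0.0426% with the strains of both groups alone (23 and 6), where the residual spread comes from 14 mice. By sign alone 5.47% were higher and 3.26% lower in all 7 strains. Leaving out 1 replicate number gave 0% to 1.95% (0 to 275 genes) and 0% to 0.796% (0 to 112) by limma, with 2 or 3 of the 7 strains left. At an unadjusted p under 0.05, where no gene passed the adjusted test, 5.28% were higher and 3.91% lower without replicate 1, and 3.59% and 3.64% without replicate 3. Leaving out 1 strain gave 1.72% to 4.39% and 0.448% to 2.2%. In the mice between the limits, 3.67% and 1.42% became 10.2% and 6.34% with no strain term (1437 and 893), and 0.334% to 1.39% (47 to 195) and 0.0497% to 0.249% (7 to 35) without 1 replicate number. Transcripts, 0.151% and 0.0176%, became 0.047% and 0.00196% with a pseudocount of 0.1 (24 and 1), and 0.299% and 0.0518% at a mean FPKM of at least 1 (104 and 18). The causes were not tested. Leaving out BXD-12/TyJ replicate 2 left 592 and 295. Of the 75 called genes that were refitted by name, none changed direction in 1800 alternative values, but 31 kept their call without any 1 strain, while 43 lost it without BXD68 and 27 without BXD55. With the strains of both groups alone 3 of the 75 kept their call, without replicate 2 it was 45, and without replicate 1 or without replicate 3 it was 0. In the main comparison the log2 difference is paired by strain, while its residual spread also comes from strains with mice of 1 group only. No paired analysis was possible by replicate number, because those numbers were given in accession order only.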
